A study of Mus musculus with 3 samples.

Results

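Angptl1, Angptl2, Angptl4, Angptl6 and Angptl7 are 5 angiopoietin-like genes among the 53380 features of 3 mouse sciatic nerve libraries. They were taken by symbol and described in each cell class and library. Such genes encode secreted glycoproteins that resemble the angiopoietins, with a coiled coil and, in all the members taken here, a fibrinogen-like domain. They are not classical ligands of Tek, the angiopoietin receptor. The best known act on blood lipids, blood vessels, inflammation or extracellular matrix, and fibroblast-like cells, which build the sheaths of a nerve, are known to make several of them.

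Each library was made from TdTomato-positive cells sorted from sciatic nerve. In every library the R26-TomatoLSL reporter had been switched on by Pdgfrb-cre/ERT2, an inducible recombinase driven from the gene of a receptor found on mesenchymal cells. The groups were intact nerve, the bridge that forms across the injury at day 7, and that bridge at day 21. Each group was 1 library of pooled nerves, so no test between groups was possible, and every interval below covers counting error only. Myelin-removal beads were used on the intact sample alone, so the beads and the injury cannot be told apart. The age of the animals is not stated in the labels.

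The authors' annotation gave a class to 1343 intact cells, 1780 day 7 cells and 4111 day 21 cells, with median depths of 5667, 19316 and 7442 UMIs, the molecules counted. The libraries shared between 41 and 58 barcodes, of which at most 2 a pair belonged to classed cells in both libraries. The classes were endoneurial (MES_ENDO, inside the nerve fascicle), epineurial (MES_EPI, the outer coat), perineurial (MES_PERI, the barrier sheath), MES_DIFF, MES_EPI-diff and dividing (MES_DIV). Between 7 and 8 of 8 endoneurial markers, between 9 and 10 of 11 epineurial markers and 9 of 9 perineurial markers were highest in the class they mark. In the day 7 perineurial class the summed perineurial markers stood at 891 CPM (counts per 1000000 UMIs of the class), against 6009 CPM in the intact class. Its endoneurial markers summed to 4579 CPM, against 2899.6 CPM in the intact class. Classes with fewer than 50 cells in a library are left out there, which removes MES_DIFF, MES_EPI-diff and MES_DIV from intact nerve and MES_EPI-diff from day 21. The classes rest on the expression of these same cells, so differences between classes are descriptions.

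Where 2 genes share a locus, counts may mix if strand was ignored, and no label or header says whether it was. On mm10, Angptl7 (chr4:148495183-148500460, minus strand) lies inside Mtor on the opposite strand, with no exon shared. Angptl1 (chr1:156838562-156861078, plus strand) lies in the same way inside Ralgps2, and Angptl2 (chr2:33216069-33247717, plus strand) inside Ralgps1. Exons of the unconfirmed transcript Gm37802 overlap those of Angptl1 on the other strand. Exons of A230050P20Rik overlap those of Angptl6 (chr9:20873808-20879727, minus strand). Mtor, like Angptl7, was higher in endoneurial than in epineurial cells of each library, but over a narrower range, with 32.6, 21.9 and 22.8 CPM in endoneurial and 10.9, 8.34 and 8.74 CPM in epineurial cells of intact, day 7 and day 21. Ralgps2 was highest in perineurial cells, at 371, 48.2 and 141 CPM, where Angptl1 was lowest.

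The promoter of Angptl7 is shown because this gene differed most between classes and times. The sequence is that of RefSeq on GRCm38.p6, chr4:148500463-148500712, minus strand, the 250 bases before the gene's start. Capitals mark the single match, 33 bases before the start, to a motif bound by SOX factors (ATTGTT, here on the other strand).
Angptl7 promoter: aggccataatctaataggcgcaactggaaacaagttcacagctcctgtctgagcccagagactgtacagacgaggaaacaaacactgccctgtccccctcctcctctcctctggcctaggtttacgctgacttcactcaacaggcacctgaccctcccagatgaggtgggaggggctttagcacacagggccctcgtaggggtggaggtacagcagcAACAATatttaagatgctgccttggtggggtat
That motif, on either strand, was in 9.42% of the 32851 promoters of this length. The search also covered the TATA box TATAAA (12.4% of promoters), the AP-1 site TGANTCA (6.75%), the hypoxia core ACGTG (16.6%), the TEAD site GGAATG (12.6%) and the CCAAT box CCAAT (33.8%). Neither these nor the SOX motif matched in the same window of Angptl1, Angptl2, Angptl6 or Angptl8.

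Over all classed cells, Angptl2 and Angptl4 were more than 2-fold higher at day 7 than in intact nerve and Angptl7 was more than 2-fold lower, while Angptl1 and Angptl6 stayed within 2-fold. These are 3 of 5 genes, beside 33.4% of the 18881 genes measured, those with more than 3 UMIs in either library (15.3% higher and 18.1% lower). Against intact nerve at day 21, Angptl2 was past 2-fold higher and Angptl7 past 2-fold lower, beside 24.4% of all measured genes (12.9% higher and 11.5% lower). Between the bridges, at day 21 against day 7, Angptl4 alone was past 2-fold, and lower, beside 24.2% of all measured genes (13.5% higher and 10.6% lower). The median log2 ratio of all measured genes lay between -0.08 and 0.11 in the 3 comparisons.

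Within classes, 4 of 15 pairs of class and gene were past 2-fold at day 7 against intact nerve. Background shares were 28.2% of measured genes in endoneurial, 27.4% in epineurial and 34.4% in perineurial cells. For day 21 against intact nerve it was 8 of 15 pairs, beside 19.8%, 19.3% and 28.2% of measured genes in endoneurial, epineurial and perineurial cells. Between day 21 and day 7, with MES_DIFF and dividing cells included, it was 13 of 25 pairs. The background there ran from 18.3% in epineurial cells, through 19.2% in endoneurial, 20.4% in dividing and 23.7% in perineurial cells, to 24.7% in MES_DIFF.

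**Figure D1:**
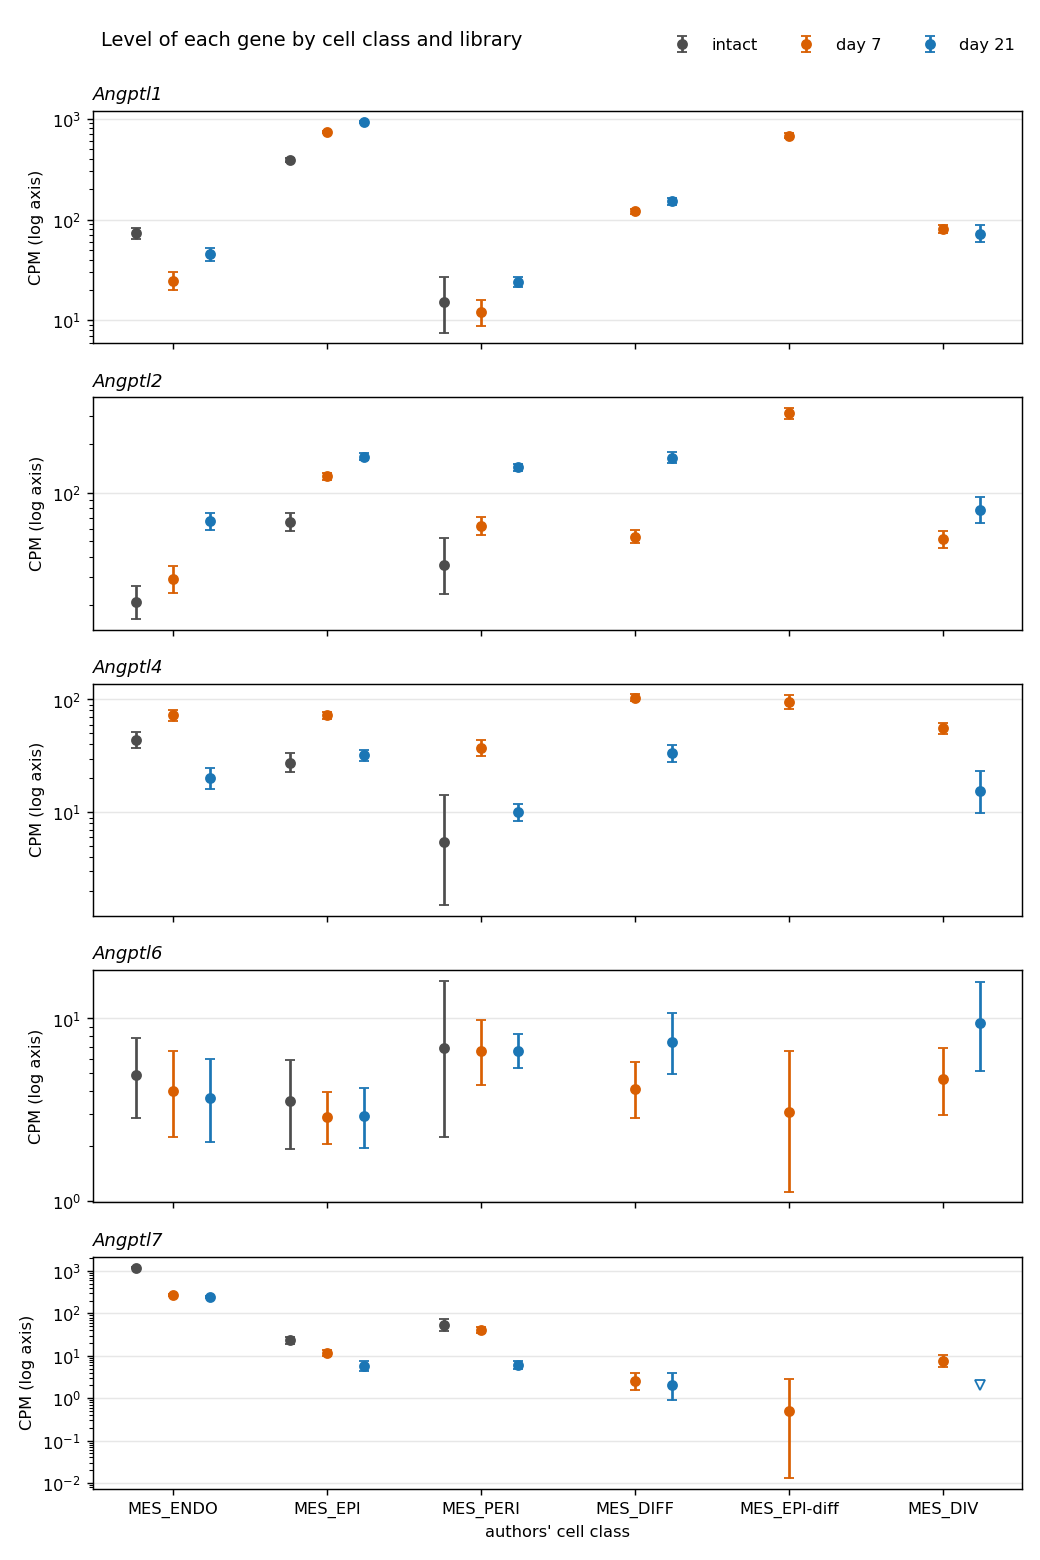
Level of each gene in CPM on a log axis, by class, for the intact, day 7 and day 21 libraries; points are summed counts of 1 library, bars are exact Poisson 95% intervals and the open triangle is 3 counts where none were seen. Angptl7 stands out in MES_ENDO, at 1197, 271 and 246 CPM, and Angptl1 in MES_EPI, at 387, 738 and 919 CPM.

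Angptl7 encodes a secreted protein known from cornea and the outflow tissue of the eye, where it bears on extracellular matrix. It was an endoneurial gene in these libraries, and it was much lower after injury. Endoneurial cells had 1197 CPM in intact nerve (4152 UMIs in 663 cells), 271 CPM at day 7 (1011 UMIs in 255 cells) and 246 CPM at day 21 (1069 UMIs in 487 cells). The log2 ratio was -2.14 at day 7 against intact nerve, a level 4.13 to 4.74 times lower within the 95% interval. The day 21 ratio against intact nerve was -2.28, or 4.55 to 5.21 times lower. Both bridge libraries thus lay well under the intact one. The summed endoneurial markers, which leave Angptl7 out, were 1.55-fold lower at day 7 and 1.66-fold lower at day 21 than in intact endoneurial cells. Their part in the Angptl7 result was not tested.

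Over all classed cells the difference was larger, with 512 CPM in intact nerve, 38.3 CPM at day 7 and 36.3 CPM at day 21. The log2 ratios against intact nerve were -3.74 at day 7 and -3.82 at day 21. They were -1.98 and -2.31 when the endoneurial, epineurial and perineurial classes alone were used, each with the same weight. Endoneurial cells made up 49.4% of classed cells in intact nerve, 14.3% at day 7 and 11.8% at day 21. They held 96.9%, 73.0% and 87.3% of the Angptl7 UMIs of the classed cells in those libraries. Both the endoneurial share of cells and the endoneurial level were thus lower in the bridges.

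The other classes had little Angptl7. Perineurial cells had 53.8 CPM in intact nerve, 41.6 CPM at day 7 and 6.13 CPM at day 21, and epineurial cells 23.1, 11.6 and 5.73 CPM. The perineurial level at day 21 was 5.83 to 13.0 times lower than in intact nerve. In intact nerve, a vascular smooth muscle-like group of 199 barcodes without a class held 95 UMIs, 53 of them in 1 barcode, and had a UMI in 4.02% of barcodes at a median of 6023 UMIs. Intact epineurial cells had a UMI in 5.93% at a median of 6936.5 UMIs, and perineurial cells in 12.1% at 5291 UMIs. Dividing cells held 0 UMIs at day 21, against 40 UMIs at day 7, which is at least 3.82-fold lower when day 21 is set to 3 counts. MES_DIFF and MES_EPI-diff held between 1 and 20 UMIs in each library described.

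The cell-by-cell pattern at day 7 and day 21 differed although the sums were near each other. At the depths sequenced, 43.0% of endoneurial cells in intact nerve, 46.7% at day 7 and 24.4% at day 21 had an Angptl7 UMI, at median depths of 4779, 15143 and 8649 UMIs. Myeloid-like barcodes, taken as a background, had one in 0.592% at day 7 (median 8521 UMIs) and in 0 of 173 at day 21 (median 6308 UMIs). With every cell thinned to 2000 UMIs, the shares were 38.2%, 26.7% and 16.0%. Cells with at least 5 thinned UMIs numbered 113 of 663 in intact nerve, 2 of 255 at day 7 and 27 of 487 at day 21. Positive cells held a mean of 6.18, 1.69 and 3.87 thinned UMIs. At day 7 the signal was thus spread thinly over more cells, and at day 21 it sat in fewer cells with more each. The summed level at day 21 against day 7 had a log2 ratio of -0.14, and the thinned one, in which every cell counts alike, had 0.46. With cells weighted alike but not thinned, the levels were close, at 264 CPM at day 7 and 281 CPM at day 21. The direction of this small difference thus was not the same under each setting.

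**Figure D2:**
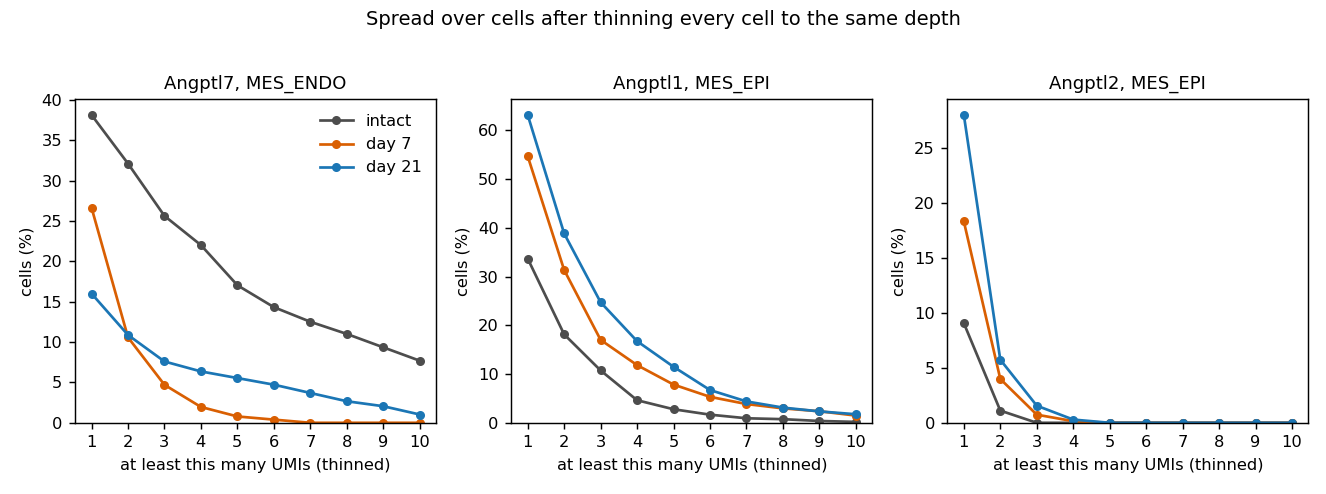
Share of cells, in percent, with at least the number of UMIs on the x axis after thinning each cell to 2000 UMIs, for Angptl7 in MES_ENDO and Angptl1 and Angptl2 in MES_EPI; lines join the values of 1 library. The day 7 line of Angptl7 starts at 26.7%, above the 16.0% of day 21, and at 5 UMIs lies under it, at 0.784% against 5.54%; for Angptl1 and Angptl2 the day 7 and day 21 lines lie above the intact one at 1 UMI.

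Angptl1, whose human protein slows vessel growth in cell and tumour assays, was highest in epineurial cells in each library, among classes with at least 50 cells. Epineurial cells had 387 CPM in intact nerve (1529 UMIs), 738 CPM at day 7 (10000 UMIs) and 919 CPM at day 21 (9466 UMIs). They held 79.3%, 77.8% and 86.8% of its UMIs in classed cells. The log2 ratio in epineurial cells was 0.93 at day 7 against intact nerve, or 1.81 to 2.01 times higher. At day 21 against intact nerve it was 1.25, or 2.25 to 2.51 times higher. A UMI was found in 55.9% of intact, 84.6% of day 7 and 88.3% of day 21 epineurial cells, and in 33.7%, 54.7% and 63.2% after thinning. The larger sum thus came with a larger share of positive cells at equal depth.

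In endoneurial cells the direction was opposite. Angptl1 had 72.9 CPM in intact endoneurial cells, 24.6 CPM at day 7 and 45.0 CPM at day 21. The log2 ratio was -1.56 at day 7 against intact nerve and -0.69 at day 21 against intact nerve. Thinning brought the day 7 value to -0.76, and 13 of the 255 day 7 cells held 67.4% of the UMIs. The difference between epineurial and endoneurial cells was not tested. Perineurial cells were lowest in every library, at 15.2, 11.995 and 24.2 CPM, beside 8.25 CPM at day 7 and 6.47 CPM at day 21 in myeloid-like barcodes. Endothelium-like barcodes, 78 at day 7, held 58 UMIs, of which 50 were in 1 barcode.

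Among the injury classes, MES_EPI-diff had 679 CPM at day 7, just under the epineurial 738 CPM, with intervals that did not overlap. MES_DIFF had 120 CPM at day 7 and 152 CPM at day 21, and dividing cells 80.6 and 72.2 CPM. The order of classes was the same in day 7 and day 21, from epineurial through MES_DIFF, dividing and endoneurial to perineurial, with no overlap of neighbouring intervals. Over all classed cells Angptl1 was at 230 CPM in intact nerve, 355 CPM at day 7 and 324 CPM at day 21. These totals moved less than the epineurial values, with log2 ratios of 0.62 at day 7 and 0.49 at day 21 against intact nerve. The epineurial share of classed cells was 40.2% in intact nerve, 38.0% at day 7 and 24.98% at day 21.

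Angptl2, known in mice as a pro-inflammatory factor that acts through integrins, was higher at day 21 than in intact nerve in every sheath. Endoneurial cells had 21.0 CPM in intact nerve, 29.2 CPM at day 7 and 66.4 CPM at day 21. Epineurial cells had 66.1, 126 and 168 CPM, and perineurial cells 35.8, 62.1 and 144 CPM. In all 3 sheaths the order was intact, day 7, day 21. The log2 ratios at day 21 against intact nerve were 1.65 in endoneurial, 1.34 in epineurial and 1.98 in perineurial cells, with folds of 2.43 to 4.14, 2.23 to 2.90 and 2.73 to 6.16 within the intervals. At day 7 against intact nerve they were 0.47, 0.93 and 0.77, all under 2-fold.

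MES_EPI-diff led at day 7, with 311 CPM, against 126 CPM in epineurial cells, the next class. Its 22 cells at day 21, left out as fewer than 50, had 367 CPM (96 UMIs). That interval, 297 to 448 CPM, lay above the epineurial one. Among the classes kept at day 21, epineurial cells (168 CPM) and MES_DIFF (165 CPM) had intervals that overlapped, with perineurial cells at 144 CPM just under them. MES_DIFF thus stood at 165 CPM at day 21, against 53.5 CPM at day 7, a log2 ratio of 1.63. After thinning, a UMI was found in 9.07% of intact, 18.3% of day 7 and 28.0% of day 21 epineurial cells, and in 6.03%, 10.4% and 23.2% of perineurial cells. Perineurial cells gave 40.1% of all Angptl2 UMIs in classed cells at day 21, against 6.94% at day 7. They made up 50.3% of classed cells at day 21, against 13.5% at day 7. Over all classed cells Angptl2 was at 45.9, 92.9 and 142 CPM in intact, day 7 and day 21.

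Angptl4, an inhibitor of lipoprotein lipase that cells make in fasting, low oxygen and wound repair, was highest at day 7. Over all classed cells it had 32.0 CPM in intact nerve, 74.5 CPM at day 7 and 21.2 CPM at day 21. The day 7 level was above the day 21 level in every class measured at both times. Log2 ratios at day 21 against day 7 were -1.85 in endoneurial, -1.17 in epineurial, -1.89 in perineurial, -1.63 in MES_DIFF and -1.81 in dividing cells. Each of the 5 was past 2-fold lower, but the epineurial value was under 2-fold, at -0.92, when cells were thinned to 2000 UMIs.

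Against intact nerve the classes were less alike. Endoneurial cells had 43.5 CPM in intact nerve, 72.3 CPM at day 7 and 19.99 CPM at day 21, the last past 2-fold under the intact level. Epineurial cells had 27.6, 72.2 and 32.1 CPM, with log2 ratios of 1.38 at day 7 and 0.21 at day 21 against intact nerve. In perineurial cells it had 4, 140 and 135 UMIs, or 5.52, 37.3 and 10.1 CPM. Their day 7 ratio against intact nerve, a log2 of 2.59, had a wide interval, at 2.58 to 25.2 times higher, since the intact value rests on those 4 UMIs. Myeloid-like barcodes had 8.84 CPM at day 7 and 3.23 CPM at day 21, and endothelium-like barcodes 11.3 and 16.3 CPM, so the perineurial level at day 21 was not above both. MES_DIFF led at day 7 with 104 CPM, an interval that overlapped the 95.4 CPM of MES_EPI-diff. At matched depth the shares of positive cells were small, at 9.35%, 10.2% and 2.67% of endoneurial and 4.44%, 7.84% and 5.06% of epineurial cells in intact, day 7 and day 21.

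**Figure D3:**
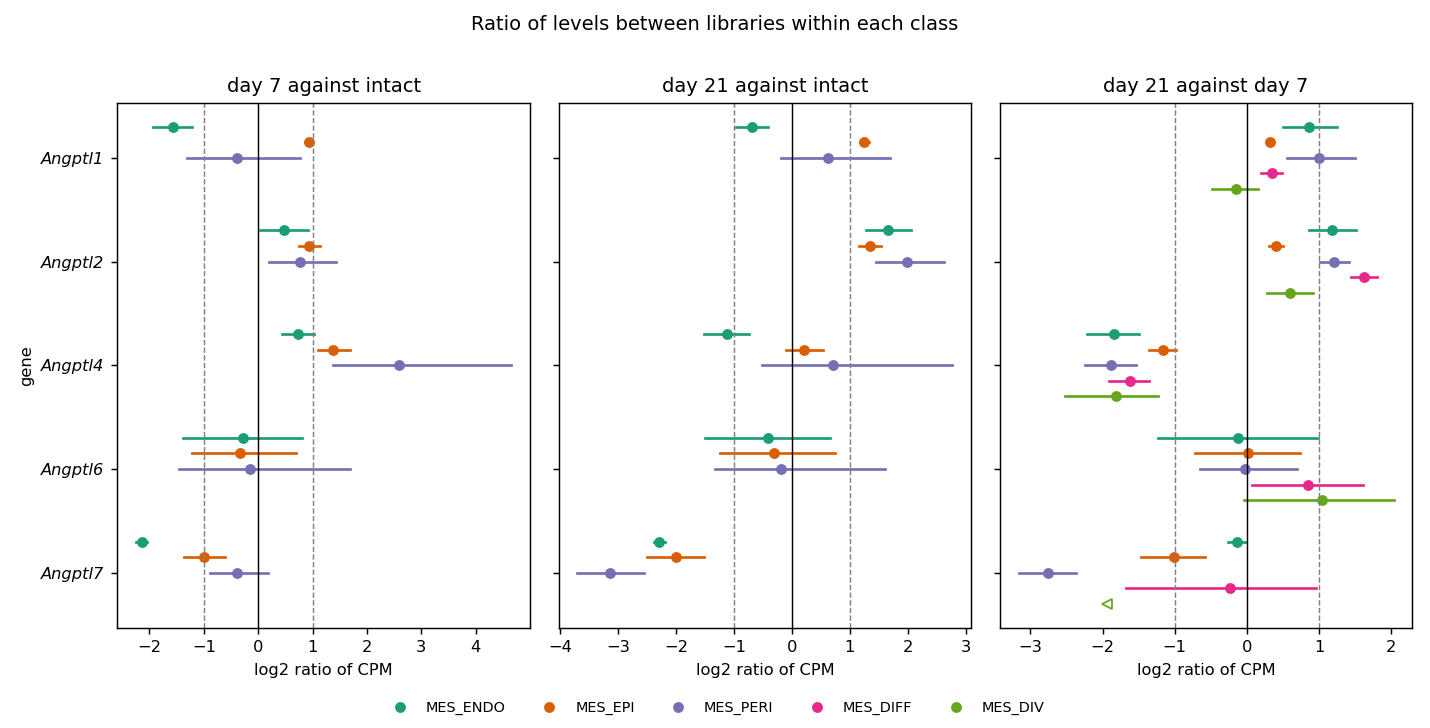
Log2 ratio of CPM between libraries for each gene, 1 panel per comparison and 1 colour per class; lines are exact conditional binomial 95% intervals, dashed lines mark 2-fold and the open triangle is the bound with 3 counts where a library had 0 UMIs. The points of Angptl4 lie left of -1 in all 5 classes at day 21 against day 7 (in MES_EPI at -0.92 after thinning, which is not drawn). Those of Angptl2 lie right of 1 in all 3 classes at day 21 against intact nerve. Those of Angptl1 lie on opposite sides of 0 in MES_EPI and MES_ENDO at day 7 and at day 21 against intact nerve.

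Angptl6, linked in mice to energy use and blood vessel growth, was near the lower limit of detection. It had 38 UMIs in intact nerve, 142 at day 7 and 178 at day 21, or 4.54, 3.93 and 5.28 CPM. Between neighbouring classes every pair of intervals overlapped in all 3 libraries, with levels from 2.88 to 9.45 CPM. Classes further apart in order did separate in the bridges. Perineurial cells, at 4.31 to 9.84 CPM, lay above epineurial cells, at 2.05 to 3.94 CPM, at day 7. At day 21 the intervals of dividing, MES_DIFF and perineurial cells all lay above the 1.96 to 4.16 CPM of epineurial cells. Dividing cells were past 2-fold at day 21 against day 7, from 14 and 24 UMIs, with a log2 ratio of 1.05, and of 0.31 after thinning. Angptl8, a further gene of the family, had 1, 6 and 3 UMIs in classed cells of intact, day 7 and day 21.

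The genes around the family's known actions were counted by list in all classed cells. Angptl4 blocks lipoprotein lipase. Lpl, the lipase itself, had 299 CPM in intact nerve, 76.9 CPM at day 7 and 317 CPM at day 21. Vldlr, a lipoprotein receptor, had 64.3, 21.4 and 68.4 CPM over all classed cells. Day 7 was the low point of both genes. Of 6 genes of proteases that cleave family members, 1 was past 2-fold higher and 0 lower at day 7 against intact nerve. Furin, at 35.4, 69.4 and 37.1 CPM in intact, day 7 and day 21, was under 2-fold. Within classes, 2 were higher and 0 lower of 6 in endoneurial cells at day 7 against intact nerve. It was 2 and 0 of 6 in epineurial, and 2 and 3 of 6 in perineurial cells.

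Angptl4 is known to be driven by hypoxia, glucocorticoids and fatty acids. Of 7 genes of these regulators, 1 was past 2-fold higher and 3 lower at day 7 against intact nerve. Hif1a, the oxygen-sensing factor, was the higher one, at 65.8, 179 and 74.4 CPM in intact, day 7 and day 21. Nr3c1, the glucocorticoid receptor, had 144, 71.9 and 183 CPM. Of 14 hypoxia-responsive genes, 0 were higher and 6 lower at day 7 against intact nerve, among them Adm, with 135, 17.3 and 32.5 CPM. Within classes, 1 was higher and 4 were lower of 13 in endoneurial cells. It was 1 and 2 of 13 in epineurial, and 3 and 4 of 13 in perineurial cells. The median log2 ratio of the hypoxia list was -0.44 over all classed cells, 0.52 in endoneurial, -0.18 in epineurial and -0.46 in perineurial cells. Of 10 glucocorticoid-responsive genes, 0 were higher and 4 lower, among them Tsc22d3, with 139, 30.1 and 86.5 CPM, and within classes 0 were higher and 4 lower of 10 in endoneurial, 1 and 4 of 10 in epineurial, and 1 and 2 of 9 in perineurial cells. Of 7 targets of the fatty-acid-sensing PPAR receptors, 0 were higher and 1 lower, and Plin2, which coats lipid droplets, had 46.6, 46.6 and 41.9 CPM. The counts over all classed cells stand beside 15.3% of measured genes past 2-fold higher and 18.1% lower. Those within classes stand beside 12.8% higher and 15.5% lower in endoneurial cells. The shares were 12.2% and 15.2% in epineurial cells, and 15.6% and 18.8% in perineurial cells.

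Of the 6 receptor genes found, 1 was higher and 1 lower at day 7 against intact nerve, beside the same 15.3% and 18.1% of measured genes. Itga5, an integrin chain through which Angptl2 acts, was the higher one over all classed cells. It had 26.6 CPM in intact nerve, 57.5 CPM at day 7 and 30.0 CPM at day 21. Within classes, 0 receptor genes were higher and 1 was lower of 6 in endoneurial cells at day 7 against intact nerve. It was 0 and 1 of 6 in epineurial, and 1 and 0 of 5 in perineurial cells, beside the class shares given above. The angiopoietins and their receptors, 5 genes, had 0 past 2-fold in either direction at day 7 and 1 higher at day 21 against intact nerve, beside 12.9% of measured genes higher at day 21. That gene was Angpt4, at 4.66, 3.79 and 9.56 CPM, most of it in epineurial cells, where Angptl1 was also highest. Angpt1, which stabilises vessels, had 38.5, 24.4 and 44.8 CPM in epineurial cells of intact, day 7 and day 21.

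The genes closest in pattern were ranked by Pearson's r of log2 CPM over the 14 groups of class and library with at least 50 cells, among 8362 genes. The groups of 1 library share its depth and preparation, so r is a description. Nearest to Angptl1 were Dpt (r = 0.95), an epineurial marker, Nfix, Itga11, Fat4 and Ebf3. Nearest to Angptl7 were Stat5a (0.94), Apod (0.93), an endoneurial marker, Nt5e, Mthfs and Celf4. Angptl4 had Cd320 (0.96), Plod3, Akr1b8, Ssr4 and Cx3cl1 nearest. For Angptl2 the nearest was Epha4, at a lower r of 0.84, followed by Erbin, 1190002N15Rik, Arid5b and Rspo3. Among the members themselves r ran from -0.73, for Angptl2 with Angptl7, to 0.59, for Angptl1 with Angptl2.

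The sort also yielded 7469 barcodes without a class, and 4139 of them passed the depth and mitochondrial limits that the classed cells met. These were clustered without the family's own genes, and clusters were named from fixed marker lists. Angptl2 and Angptl4 were also found in Schwann-like and pericyte-like barcodes, and Angptl1 and Angptl7 hardly. Schwann-like barcodes had 99.1 CPM of Angptl2 at day 7 and 87.5 CPM at day 21, and pericyte-like barcodes had 85.8 and 124 CPM. Their levels lay above the endoneurial ones, at 29.2 and 66.4 CPM. Myeloid-like barcodes had 7.66 CPM at day 7 and 23.4 CPM at day 21, and endothelium-like ones 12.3 and 13.6 CPM. Angptl4 stood at 59.4 CPM at day 7 and 29.1 CPM at day 21 in Schwann-like barcodes, and at 34.9 and 41.5 CPM in pericyte-like ones. The pericyte-like intervals of the days overlapped, at 27.6 to 43.7 CPM at day 7 and 30.9 to 54.5 CPM at day 21. Angptl1 stayed at or under 7.86 CPM in Schwann-like and pericyte-like barcodes, and Angptl7 at or under 1.31 CPM. Angptl6 had 6.99 CPM at day 7 (16 UMIs) and 13.9 CPM at day 21 (102 UMIs) in Schwann-like barcodes. The day 21 value was above the 9.45 CPM of dividing cells, the highest class, but the intervals overlapped, at 11.4 to 16.9 and 5.16 to 15.8 CPM. The mesenchymal clusters without a class held the same genes as the classes, with 419 CPM of Angptl1 at day 7 and 632 CPM at day 21 in epineurial-like barcodes, and 156 CPM of Angptl7 at day 7 in endoneurial-like ones.

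**Figure D4:**
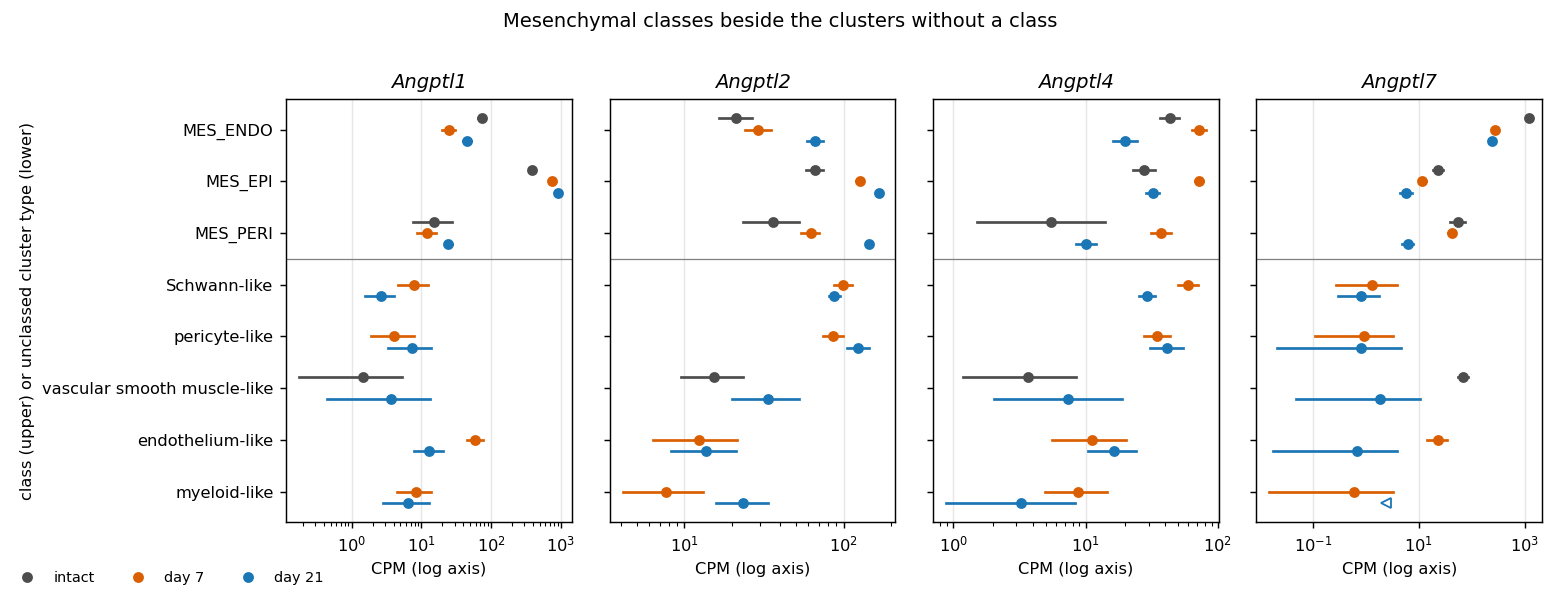
Level in CPM on a log axis of 4 genes in the 3 sheath classes (upper rows) and in barcode clusters without a class (lower rows), for types with at least 50 barcodes in a library; lines are exact Poisson 95% intervals and the open triangle is 3 counts where none were seen. Angptl2 and Angptl4 reach Schwann-like and pericyte-like barcodes at levels like those of the classes, and Angptl1 and Angptl7 do not, at 7.86 CPM or less.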

How the data were processed

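Per the file headers, the authors' deposited matrices came from Cell Ranger 6.1.2 and hold UMI counts, whole numbers for each gene in each barcode. Cell Ranger 3.0.2, Seurat 4.0.1, mm10 and GRCm38 are further named in the submitters' processing notes. How cells were filtered and doublets removed is not given in the sources used here, and no doublet caller was run. The authors' metadata gave each of 7235 cells a library and a class, and 7234 were found among 14703 barcodes. The intact, day 7 and day 21 libraries totalled 11509106, 58155334 and 51898719 UMIs, of which classed cells held 8371421, 36169912 and 33683464.

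Counts were summed per class and library and scaled to CPM, counts per 1000000 UMIs of that class, which are not divided by gene length, so levels are compared within a gene. Log2 ratios were taken of sums with 0.5 counts added. Intervals are exact at 95%, Poisson for CPM, conditional binomial for ratios and Clopper-Pearson for shares. A gene counted as measured with more than 3 counts in either library. Cells are not replicates, so no test was made. The ratio step was tested on simulated data.

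Unclassed barcodes with 2000 UMIs and 1000 genes or more and a mitochondrial share below 10% were clustered with Scanpy 1.11.5 into 20 clusters (2000 variable genes, 30 components, 15 neighbours, resolution 1), and 183 barcodes stayed unnamed. Other steps used Python 3.11.15, NumPy 2.4.6, SciPy 1.17.1 and pandas 2.3.3. Gene positions came from GENCODE M21 where the identifier version was the same, and promoters from RefSeq.

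The members, gene lists and marker lists were chosen with earlier results of these data known, and the promoter motifs after values were seen. All members are named, with up to 4 genes of each list by the size of their log2 ratio among those with at least 20 CPM, and the 5 nearest in pattern. Angpt4 was named after its value was seen. Some results are not reported here. Alternatives were a pseudocount of 1, equal weight per cell, thinning to 2000 UMIs, median-ratio scaling, a 1.5-fold threshold and more than 30 counts. Further ones were equal weight for the endoneurial, epineurial and perineurial classes alone, leaving out dividing cells, and every barcode past the depth filter.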

Additional observations from a re-analysis of the deposited data

Results flagged for a closer look

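Angptl1 stood on opposite sides of no difference in 2 sheath classes under the same comparison. At day 7 against intact nerve its log2 ratio was 0.93 in epineurial cells and -1.56 in endoneurial cells. At day 21 against intact nerve it was 1.25 in epineurial cells and -0.69 in endoneurial cells. With 1 library per group the difference between the classes was not tested.

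Barcodes to which the authors gave no class were left out of the comparisons, and their mix of cell types was different in each library. Of those that met the depth limits, 440 at day 7, 16 at day 21 and 0 in intact nerve were injury mesenchymal-like. Schwann-like barcodes numbered 194 at day 7, 1207 at day 21 and 5 in intact nerve, and vascular smooth muscle-like ones 33, 85 and 199. The levels of the genes in them compare unlike mixtures of cells. The intervals of 4 members lay above their intact intervals in at least 1 bridge library. The share of all genes for which this held was not computed. Angptl1 had 151.8 CPM at day 7 and 77.1 CPM at day 21, against 38.9 CPM in intact nerve. Angptl2 had 72.7 CPM at day 7 and 85.5 CPM at day 21, against 25.2 CPM in intact nerve. Angptl4 had 61.3 CPM at day 7 and 26.0 CPM at day 21, against 13.7 CPM in intact nerve. Angptl6 had 8.56 CPM at day 21, against 2.55 CPM in intact nerve, and at day 7 4.41 CPM, with an interval of 3.58 to 5.38 CPM that overlapped the 1.10 to 5.02 CPM of intact nerve. Angptl7 lay the other way, with 19.1 CPM at day 7 and 6.09 CPM at day 21, against 182.9 CPM in intact nerve.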

How the results depend on the processing

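No paired analysis was possible because each group held 1 library. Each of 70 gene-level log2 ratios was recomputed under the alternatives that applied to it, 325 values in all. Of these, 261 moved by less than counting error, 64 moved further, 0 changed sign among ratios past 2-fold, and 17 moved by more than 1.5 times. Lowering the threshold to 1.5-fold gave 9 pairs of class and gene at day 7 against intact nerve, in place of 4, and 2 members at day 21 against day 7, in place of 1. The share of all measured genes past 1.5-fold was not computed, so these counts have no background beside them.

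Over all classed cells at day 7 against intact nerve, Angptl4 was under 2-fold when each cell was weighted alike or thinned, and Angptl2 was under it with median-ratio scaling or equal class weights. At day 21 against intact nerve, Angptl4 passed 2-fold lower with thinning and Angptl1 passed 2-fold higher with equal class weights. Equal class weights cover the endoneurial, epineurial and perineurial classes alone. Thinning gave -1.79 for Angptl4 in endoneurial cells at day 21 against intact nerve, in place of -1.12, and 1.56 in perineurial cells at day 7 against intact nerve, in place of 2.59. In perineurial cells at day 21 against intact nerve it gave -0.46, in place of 0.71, on 4 intact UMIs. The leading class was the same in 13 of 15 member and library pairs under either weighting of cells. The causes were not tested. Depth limits Angptl6, with at most 89 UMIs in a class, and intact perineurial cells, of which there were 116.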

Other observations

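Endoneurial cells with at least 2 thinned Angptl7 UMIs (213 in intact nerve, 27 at day 7, 53 at day 21) were set beside those with none (410, 187 and 409). In intact nerve the 10 genes most higher in the Angptl7 cells, among genes at 100 CPM and 50 counts or more, were led by Epyc, which encodes a small leucine-rich proteoglycan of cartilage. Its log2 ratio was 1.55 in intact nerve, 1.39 at day 7 and 1.10 at day 21, the bridge values on 8 UMIs each. Spry4, an inhibitor of receptor tyrosine kinase signals, had 0.77, 0.75 and 1.47, the bridge values on 4 UMIs at day 7 and 14 at day 21 in the Angptl7 cells. Of the 10 genes, 6 were higher in the Angptl7 cells of both bridge libraries, and the others were not. Among those others, Mprip had -2.07 at day 7, on 1 UMI in the Angptl7 cells, and Copb1 had -1.09 at day 21, on 5 UMIs. Of the 10 genes most lower in the Angptl7 cells of intact nerve, 6 were lower in both bridge libraries too. The share of all genes that kept their sign in this way was not computed. The genes were picked in the intact cells by the same counts, so the intact ratios are a description, and no test was made.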
